A study of Mus musculus with 81 samples.

Results

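The 7 Fc receptor genes measured in these microglia were Fcgr1, Fcgr2b, Fcgr3, Fcgr4, Fcer1g, Fcgrt and Fcrls, out of 25124 genes in the count tables. They were taken by their symbols, with earlier results of these data known, and all 7 passed the filter on low counts in all 5 experiments. Microglia were sorted from brains of adult male C57BL/6 mice at baseline or on a diet with 0.2% cuprizone, a copper chelator whose feeding leads to loss of oligodendrocytes and myelin. RNA-seq gave 81 libraries in 28 groups of 2 to 4. Every sample pooled the brains of 2 to 6 mice, so replicate error here is the spread between pools.

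The groups were as follows. At 4 weeks of cuprizone, Trem2KO mice were set against wild-type (WT) mice, with cells sorted as CD229+CD11c- or CD229-CD11c- in both genotypes and also as CD229+CD11c+ in WT. At 5 weeks, mice with floxed Mef2a and Cx3cr1CreERT2 (Mef2aKO) were set against Cx3cr1CreERT2/WT mice (Cre), with cells sorted stepwise by Clec7a, CD229 and CD11c. At 6 weeks, mice with floxed Egr2 and Cx3cr1CreERT2 (Egr2KO) were set against the same Cre line in the 3 CD229 and CD11c gates, and unsplit cells of both were taken at 5 weeks. Each genotype also had baseline microglia, gated as low for CD44, CD45 and CD11b. Mef2aKO baseline cells were sorted by CD229 as well. Both conditional lines and their Cre controls carry a CreERT2 driven by the Cx3cr1 locus, which is active in microglia and other mononuclear phagocytes. How recombination was induced is not given in the sources used here. The same 3 Cre baseline libraries served the 5-week and 6-week experiments. Cells were incubated with unlabelled antibody to CD16/CD32, the proteins of Fcgr3 and Fcgr2b, before the sort, and all samples shared this step.

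Receptors for the Fc part of IgG let macrophages and microglia take up and respond to antibody-coated material. Fcgr1, Fcgr3 and Fcgr4 encode the activating receptors, which signal through the shared gamma chain encoded by Fcer1g. Fcgr2b encodes the inhibitory receptor, which carries its own inhibitory motif. Fcgrt encodes the neonatal Fc receptor, which recycles IgG inside cells. Fcrls is an Fc receptor-like gene that marks microglia in the mouse. Fcgr2b (chr1:170960559-170976071, minus strand), Fcgr4 (chr1:171018926-171029761, plus strand), Fcgr3 (chr1:171051169-171059403, minus strand) and Fcer1g (chr1:171229572-171234349, minus strand) lie in one stretch of 273791 bases of mm10. Ly9, which encodes the sorting antigen CD229, starts 354264 bases beyond Fcer1g. Fcrls (chr3:87250965-87263524, minus strand), Fcgr1 (chr3:96282909-96293969, minus strand) and Fcgrt (chr7:45092993-45103822, minus strand) lie elsewhere.

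The 250 bases before the start sites of Fcgr4, which moved most, Fcgr3, Fcgr1 and Fcgr2b are shown to set the receptor genes side by side (RefSeq, GRCm38.p6, 5′ to 3′ on the gene's strand). Capitals mark matches, on either strand, to GAGGAA (the ETS core found in PU.1 sites), the ISRE core, TTCNNNGAA (GAS), TGANTCA (AP-1), the MEF2 core or GCGNGGGCG (EGR).
Fcgr4 (chr1:171018676-171018925, plus strand): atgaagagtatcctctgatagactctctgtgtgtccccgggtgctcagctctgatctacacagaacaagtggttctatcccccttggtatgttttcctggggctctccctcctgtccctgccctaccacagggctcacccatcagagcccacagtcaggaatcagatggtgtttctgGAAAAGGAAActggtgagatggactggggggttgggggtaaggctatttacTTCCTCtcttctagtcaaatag
Fcgr3 (chr1:171059404-171059653, minus strand): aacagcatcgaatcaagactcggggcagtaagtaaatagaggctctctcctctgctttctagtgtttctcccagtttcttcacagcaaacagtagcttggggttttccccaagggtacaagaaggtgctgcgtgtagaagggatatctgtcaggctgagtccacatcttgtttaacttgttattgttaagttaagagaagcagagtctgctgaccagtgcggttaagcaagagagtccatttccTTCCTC
Fcgr1 (chr3:96293970-96294219, minus strand): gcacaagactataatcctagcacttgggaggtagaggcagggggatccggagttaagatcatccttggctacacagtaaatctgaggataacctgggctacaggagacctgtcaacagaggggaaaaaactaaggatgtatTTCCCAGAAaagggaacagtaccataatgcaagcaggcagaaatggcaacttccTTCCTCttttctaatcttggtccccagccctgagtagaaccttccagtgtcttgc
Fcgr2b (chr1:170976072-170976321, minus strand): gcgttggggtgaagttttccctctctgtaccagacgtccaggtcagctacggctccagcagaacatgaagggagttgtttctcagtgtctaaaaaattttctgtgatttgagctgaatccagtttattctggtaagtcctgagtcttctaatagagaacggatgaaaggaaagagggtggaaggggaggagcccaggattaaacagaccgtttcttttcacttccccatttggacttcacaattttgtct
The Fcgr4 window held an ISRE core that begins 73 bases before the start site and an ETS core at 22 bases. The Fcgr1 window held a GAS match at 109 bases and an ETS core at 55 bases, and the Fcgr3 window held an ETS core at 6 bases. The Fcgr2b window held none of the 6 motifs, and no 2 matches overlapped. Of 32851 mouse promoter windows of the same length, 2.98% held the ISRE core, 7.02% the GAS motif, 23.3% the ETS core, 6.75% the AP-1 motif, 3.20% the MEF2 core and 4.70% the EGR motif. These matches are letters in a window and were not tested as binding sites.

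Levels are given as the authors' deposited TPM, which is per transcript length, and differences as log2 fold changes fitted to the deposited read counts with edgeR's quasi-likelihood test, called at an adjusted p under 0.05 over all genes tested. The libraries held 4387075 to 13972985 assigned reads, with a median of 9549766, and the members had at least 80 reads in every library. All 10 microglia markers were expressed, with a summed level of 6910 to 16400 CPM. The 6 monocyte markers summed to 6.39 to 34.5 CPM, the 8 border macrophage markers to 8.72 to 386 CPM and the 7 T and NK cell markers to at most 11.5 CPM. The 6 dendritic cell markers summed to at most 18.5 CPM and the 4 endothelial markers to 26.3 to 328 CPM. Of the 4 endothelial markers, 2 averaged over 5 CPM. The 8 neutrophil markers summed to 723 to 1100 CPM, and 1 of the 8 averaged over 5 CPM. These sums differed between gates and genotypes, and their part in the member values was not tested. Trem2 gave 87.5 to 165 CPM in Trem2KO libraries against 347 to 688 CPM in WT libraries. Egr2 gave 18.4 and 26.5 CPM in unsplit Egr2KO cells against 65.2 and 68.8 CPM in unsplit Cre cells. At 6 weeks Egr2 gave 9.43 to 11.6 CPM in Egr2KO against 13.4 to 27.3 CPM in Cre CD229-CD11c- cells and 76.7 to 90.0 CPM in Egr2KO against 97.6 to 121 CPM in Cre CD229+CD11c+ cells, and overlapped in the CD229+CD11c- gate. The Mef2a read total was 566 to 965 CPM in Mef2aKO libraries against 486 to 1065 CPM in Cre libraries, so it does not check the deletion.

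Fcrls was the most abundant member by length, with 527 to 1128 TPM over the 81 libraries, followed by Fcgr3 (400 to 676 TPM) and Fcer1g (336 to 822 TPM). Fcgr2b followed with 224 to 440 TPM and Fcgr1 with 171 to 251 TPM. Fcgrt (51.5 to 98.3 TPM) and Fcgr4 (9.96 to 81.3 TPM) were the lowest. Fcgr4 was thus the scarcest receptor and the one that varied most, with an 8.16-fold span between its lowest and highest library. The span was 1.47-fold for Fcgr1, the flattest member, and 1.69-fold to 2.44-fold for the other 5. Over the 28 groups, mean Fcgr4 ran from 11.2 TPM in Trem2KO baseline cells to 75.9 TPM in Mef2aKO Clec7a+CD229+CD11c+ cells. Most neighbours in the order of group means were not separated: of 27 neighbouring pairs, the library ranges overlapped in 25 for Fcgr4, in 26 each for Fcgr2b, Fcgr3 and Fcer1g, and in all 27 for Fcgr1, Fcgrt and Fcrls.

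Of 245 member values in the 35 comparisons between 2 groups, 55 were called, and for 52 of these the TPM ranges of the groups did not overlap. Between 0.15% and 52.5% of all genes tested were called in these comparisons, depending on the comparison. How often the ranges of called genes lay apart over all genes was not computed. Fcgr4 was called in 16 comparisons, Fcgr2b in 10, Fcrls in 8, Fcer1g and Fcgrt in 7 each, Fcgr3 in 6 and Fcgr1 in 1. The fitted log2 fold changes differed from the log2 ratios of mean TPM by at most 0.157, and all 55 called values had the same sign on both scales.

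**Figure D1:**
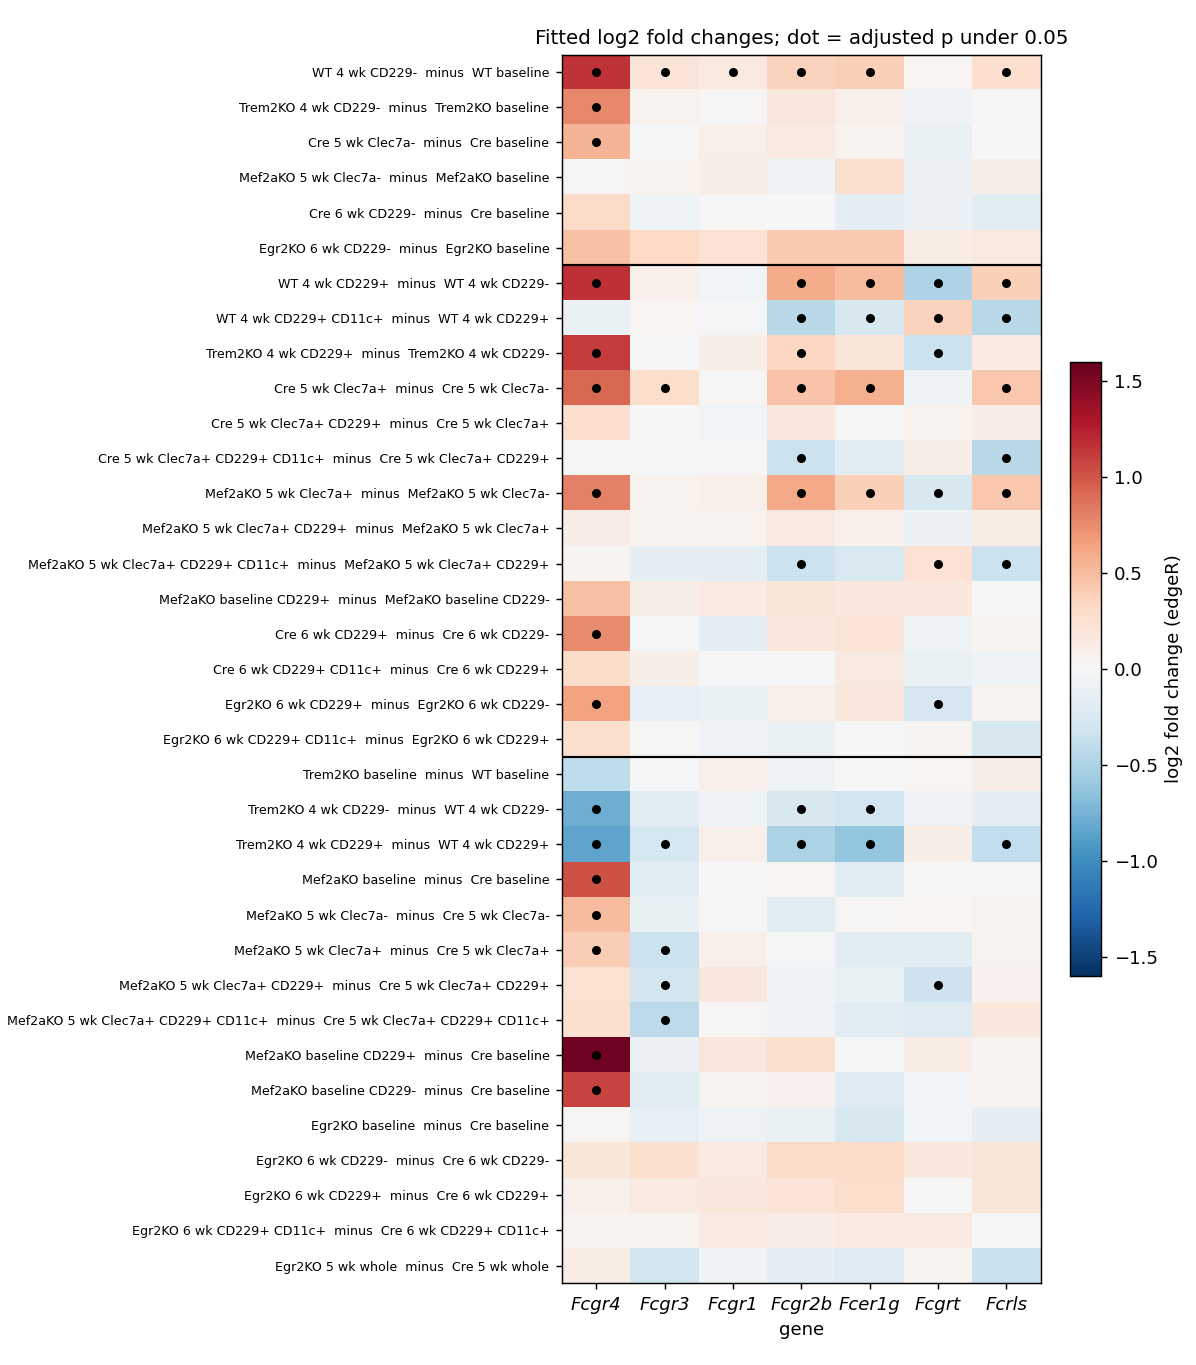
Fitted log2 fold changes of the 7 genes (columns) in the 35 comparisons between 2 groups (rows, the first-named group minus the second), in blocks for diet, gate and genotype. Colour gives the log2 fold change and a dot an adjusted p under 0.05. Fcgr4 carries 16 of the 55 dots and Fcgr1 only 1.

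In WT mice, 6 of the 7 genes were higher in CD229-CD11c- cells after 4 weeks of cuprizone than in baseline cells, Fcgr4 most of all. This comparison also changes the gate, since baseline cells were not split by CD229. Fcgr4, the IgG2-binding activating receptor of mouse myeloid cells, had 25.1, 27.3 and 41.4 TPM in the cuprizone libraries, against 14.0, 16.2 and 15.0 TPM at baseline. All 3 cuprizone libraries were above all 3 baseline libraries, a 2.22-fold difference (log2 fold change 1.15, SE 0.18, adjusted p = 1.06e-05). The gamma chain Fcer1g had 579, 550 and 582 TPM on cuprizone against 456, 474 and 475 TPM at baseline (0.38, SE 0.085, adjusted p = 0.000968). Fcgr2b had 287, 295 and 302 TPM on cuprizone against 245, 239 and 250 TPM at baseline (0.37, SE 0.061, adjusted p = 3.19e-05). Both sets of libraries were apart. Fcrls rose by 0.26 (SE 0.077, adjusted p = 0.0101). Fcgr3, the main activating receptor by level, rose by 0.21 (SE 0.071, adjusted p = 0.0245) and Fcgr1, the high-affinity receptor, by 0.16 (SE 0.058, adjusted p = 0.043), both with overlapping TPM ranges. Over all 12647 genes tested, 30.4% were called in this comparison, 18.8% as higher. The median log2 fold change was 0.26 over the 7 genes and 0.0012 over all genes. The Fcgr1 call was lost under 5 alternative settings (adjusted p 0.055 to 0.117) and without any one of the 6 libraries (adjusted p 0.064 to 0.228), the Fcrls call without WT baseline replicate 2 (adjusted p = 0.102), and the Fcgr3 call without WT baseline replicate 1 or 2 or without WT CD229-CD11c- replicate 1 or 3 (adjusted p 0.0568 to 0.17).

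In WT mice, 4 of the genes were higher again in CD229+CD11c- cells than in CD229-CD11c- cells, and Fcgrt was lower. Fcgr4 had 62.2, 67.2 and 69.3 TPM in CD229+CD11c- cells, against 25.1, 27.3 and 41.4 TPM in CD229-CD11c- cells (1.17, SE 0.16, adjusted p = 7.07e-07). Fcgr2b had 416, 440 and 400 TPM in CD229+CD11c- cells against 287, 295 and 302 TPM in CD229-CD11c- cells (0.59, SE 0.061, adjusted p = 7.86e-09). Fcer1g averaged 763 ± 60.5 TPM in CD229+CD11c- cells and 570 ± 17.8 TPM in CD229-CD11c- cells (SD, n = 3 each; 0.51, adjusted p = 1.46e-05). Fcrls rose by 0.38 (SE 0.077, adjusted p = 0.000176). Fcgrt had 58.9, 51.5 and 57.2 TPM in CD229+CD11c- cells, against 82.7, 84.6 and 84.7 TPM in CD229-CD11c- cells, and fell by 0.50 (SE 0.084, adjusted p = 1.82e-05). Fcgr1 and Fcgr3 were not called. In all, 5 of 7 genes were called against 48.8% of all genes. The summed microglia markers were 9990 to 11300 CPM in CD229+CD11c- cells and 13300 to 15000 CPM in CD229-CD11c- cells, and the border macrophage markers 77.1 to 224 CPM in CD229+CD11c- cells and 60.3 to 191 CPM in CD229-CD11c- cells. The endothelial markers summed to 250 to 279 CPM in CD229+CD11c- cells and 84.0 to 116 CPM in CD229-CD11c- cells. Of these 4 markers, 1 averaged over 5 CPM in CD229+CD11c- cells and 2 in CD229-CD11c- cells. Cldn5 had 0 reads in all CD229+CD11c- libraries. The part of these marker sets in the values was not tested. In sorted bulk samples, a larger share of cells with a transcript and more transcript per cell cannot be told apart.

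The CD229+CD11c+ cells of WT mice stood lower than CD229+CD11c- cells for 3 genes, higher for Fcgrt and near them for Fcgr4. Fcgr2b had 301, 305 and 322 TPM in CD229+CD11c+ cells against 416, 440 and 400 TPM in CD229+CD11c- cells (-0.45, SE 0.061, adjusted p = 4.06e-06). Fcrls averaged 797 ± 51.0 TPM in CD229+CD11c+ cells and 1074 ± 47.8 TPM in CD229+CD11c- cells (SD, n = 3 each; -0.45, adjusted p = 8.62e-05). Fcer1g differed by -0.26 (SE 0.084, adjusted p = 0.0273), a call lost without CD229+CD11c- replicate 1 or 2 or CD229+CD11c+ replicate 2 (adjusted p 0.064 to 0.18), and Fcgrt by 0.37 (SE 0.084, adjusted p = 0.00211). Fcgr4 had 68.0, 60.4 and 58.8 TPM in CD229+CD11c+ cells, a range that overlaps its CD229+CD11c- values. Here 4 of 7 genes were called, against 23.3% of all genes. The microglia markers summed to 9000 to 9590 CPM in CD229+CD11c+ cells and 9990 to 11300 CPM in CD229+CD11c- cells. For the endothelial markers these sums were 163 to 232 CPM and 250 to 279 CPM, in the same order. In both gates 1 of these 4 markers averaged over 5 CPM and Cldn5 had 0 reads. For the T and NK cell markers the sums were 10.8 to 11.1 CPM and 3.22 to 7.19 CPM, in the same order. Of these 7 markers, Cd3e, Cd3g, Cd8a, Ncr1 and Nkg7 had 0 reads in all libraries of both gates. Only 1 of the 7 averaged over 5 CPM in CD229+CD11c+ cells, and 0 did in CD229+CD11c- cells. The part of these marker sets was not tested.

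Trem2 is a lipid-sensing receptor that signals through an ITAM adaptor as the activating Fc receptors do. Its loss went with lower transcripts of some Fc receptor genes under cuprizone. In the CD229+CD11c- gate 5 of the 7 genes were lower in Trem2KO than in WT cells, where 52.5% of all genes were called, 26.5% as lower. Fcgr4 had 41.3, 28.3, 48.6 and 46.9 TPM in Trem2KO against 62.2, 67.2 and 69.3 TPM in WT, with every Trem2KO library below every WT library (-0.84, SE 0.14, adjusted p = 1.76e-05). Fcer1g had 469, 546, 590 and 586 TPM in Trem2KO against 768, 821 and 701 TPM in WT (-0.63, SE 0.079, adjusted p = 1.68e-07). Fcgr2b had 318, 311, 336 and 348 TPM in Trem2KO against 416, 440 and 400 TPM in WT (-0.50, SE 0.056, adjusted p = 2.97e-08). Fcrls differed by -0.39 (SE 0.071, adjusted p = 4.21e-05), and Fcgr3 differed by -0.28 (SE 0.066, adjusted p = 0.000889) with overlapping TPM ranges. Fcgr1 and Fcgrt were higher in Trem2KO with ranges apart, but were not called. Fcgr1 had 222.1 to 251.3 TPM in Trem2KO against 197.5 to 203.5 TPM in WT, and Fcgrt 63.8 to 69.5 against 51.5 to 58.9 TPM. The endothelial markers summed to 26.3 to 30.7 CPM in Trem2KO against 250 to 279 CPM in WT, with 1 of the 4 over 5 CPM in each. The microglia markers summed to 11500 to 13300 CPM in Trem2KO against 9990 to 11300 CPM in WT. The part of these marker sets was not tested.

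In the CD229-CD11c- gate 3 of the 7 genes were lower in Trem2KO than in WT cells, where 20.3% of all genes were called, 13.1% as lower. Fcgr4 had 18.0, 20.1, 18.2 and 20.0 TPM in Trem2KO against 25.1, 27.3 and 41.4 TPM in WT (-0.79, SE 0.16, adjusted p = 0.000874). Fcer1g differed by -0.31 (SE 0.079, adjusted p = 0.00632) and Fcgr2b by -0.25 (SE 0.057, adjusted p = 0.00222). The border macrophage markers summed to 20.2 to 32.0 CPM in Trem2KO against 60.3 to 191 CPM in WT cells of this gate, and their part was not tested. At baseline no member was called by edgeR or by DESeq2, against 0.577% of all genes, and 1 had an unadjusted p under 0.05. That gene was Fcgr4, with 10.4, 9.96 and 13.3 TPM in Trem2KO against 14.0, 16.2 and 15.0 TPM in WT. Its ranges were apart, but the log2 fold change of -0.41 (SE 0.20) had an adjusted p of 0.65.

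Within Trem2KO mice Fcgr4 still rose along both steps. It was higher in CD229-CD11c- cuprizone cells than at baseline by 0.77 (SE 0.18, adjusted p = 0.00731), the only member called there against 7.28% of all genes. That call was lost without Trem2KO baseline replicate 1 or 2 (adjusted p 0.0532 and 0.0643). It was higher again in CD229+CD11c- cells than in CD229-CD11c- cells by 1.12 (SE 0.15, adjusted p = 1.46e-06). Along this CD229 step Fcgr2b rose by 0.34 (SE 0.053, adjusted p = 1.35e-05) and Fcgrt fell by 0.34 (SE 0.072, adjusted p = 0.000609), so that 3 of 7 genes were called against 27.5% of all genes. The border macrophage markers summed to 83.6 to 117 CPM in the Trem2KO CD229+CD11c- libraries and 20.2 to 32.0 CPM in the Trem2KO CD229-CD11c- libraries, and their part was not tested. The test of the difference between genotypes in the CD229 step called Fcgr2b alone (-0.25, SE 0.081, adjusted p = 0.0359), against 14.8% of all genes, with a smaller step in Trem2KO. That call was lost on leaving out any one of 8 of the 14 libraries (adjusted p 0.053 to 0.142) and without the filter on low counts (adjusted p = 0.0518). Fcer1g was not called (-0.32, SE 0.11, adjusted p = 0.0533), but was under 6 alternative settings (adjusted p 0.00514 to 0.0395). For Fcgr4 the same test gave an adjusted p of 0.905, and the test of the difference in the diet step gave -0.38 (SE 0.26, adjusted p = 0.43). In that second test edgeR and DESeq2 called no member, 3 had an unadjusted p under 0.05, and 3.95% of all genes were called. The genotype, gate and diet comparisons of this experiment share libraries and are not independent.

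In the 5-week experiment the Clec7a gate took the place of CD229 as the first step. Clec7a, a fungal glucan receptor, is itself a marker of activated microglia. In Cre mice 5 of the 7 genes were higher in Clec7a+ than in Clec7a- cells, where 37.9% of all genes were called, 20.9% as higher. Fcgr4 had 54.5, 46.9 and 50.5 TPM in Clec7a+ cells against 28.6, 25.6 and 32.8 TPM in Clec7a- cells (0.92, SE 0.12, adjusted p = 2.57e-07). Fcer1g had 628, 634 and 722 TPM in Clec7a+ cells against 469, 508 and 476 TPM in Clec7a- cells (0.57, SE 0.088, adjusted p = 3.95e-06). All Clec7a+ libraries were above all Clec7a- libraries for both genes. Fcgr2b rose by 0.46 (SE 0.068, adjusted p = 1.88e-06) and Fcrls by 0.43 (SE 0.085, adjusted p = 0.000115). Fcgr3 rose by 0.29 (SE 0.084, adjusted p = 0.00686), a call lost without Clec7a+ replicate 3 (adjusted p = 0.0747). The border macrophage markers summed to 103 to 193 CPM in Clec7a+ cells and 22.4 to 33.6 CPM in Clec7a- cells. The microglia markers summed to 9880 to 11600 CPM in Clec7a+ cells and 11600 to 12200 CPM in Clec7a- cells. The endothelial markers summed to 176 to 212 CPM in Clec7a+ cells and 78.5 to 92.3 CPM in Clec7a- cells. In both gates 2 of these 4 markers averaged over 5 CPM and Cldn5 had 0 reads. The part of these marker sets was not tested.

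The Clec7a- cells themselves differed from baseline for Fcgr4 alone (0.54, SE 0.13, adjusted p = 0.00198), against 28.8% of all genes. The Clec7a+CD229+ libraries had 61.3, 53.5 and 66.7 TPM and the Clec7a+CD229+CD11c+ libraries 56.5, 55.4 and 72.4 TPM of Fcgr4, which overlap. In the CD229 step of Cre mice edgeR and DESeq2 called no member, 2 had an unadjusted p under 0.05, and 5.53% of all genes were called. In the CD11c step of Cre mice Fcgr2b (-0.34, SE 0.067, adjusted p = 0.000447) and Fcrls (-0.44, SE 0.085, adjusted p = 0.000322) were lower in CD11c+ than in CD11c- cells, against 14.1% of all genes. Fcgr2b and Fcrls were also lower in the CD11c step of WT mice at 4 weeks.

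**Figure D2:**
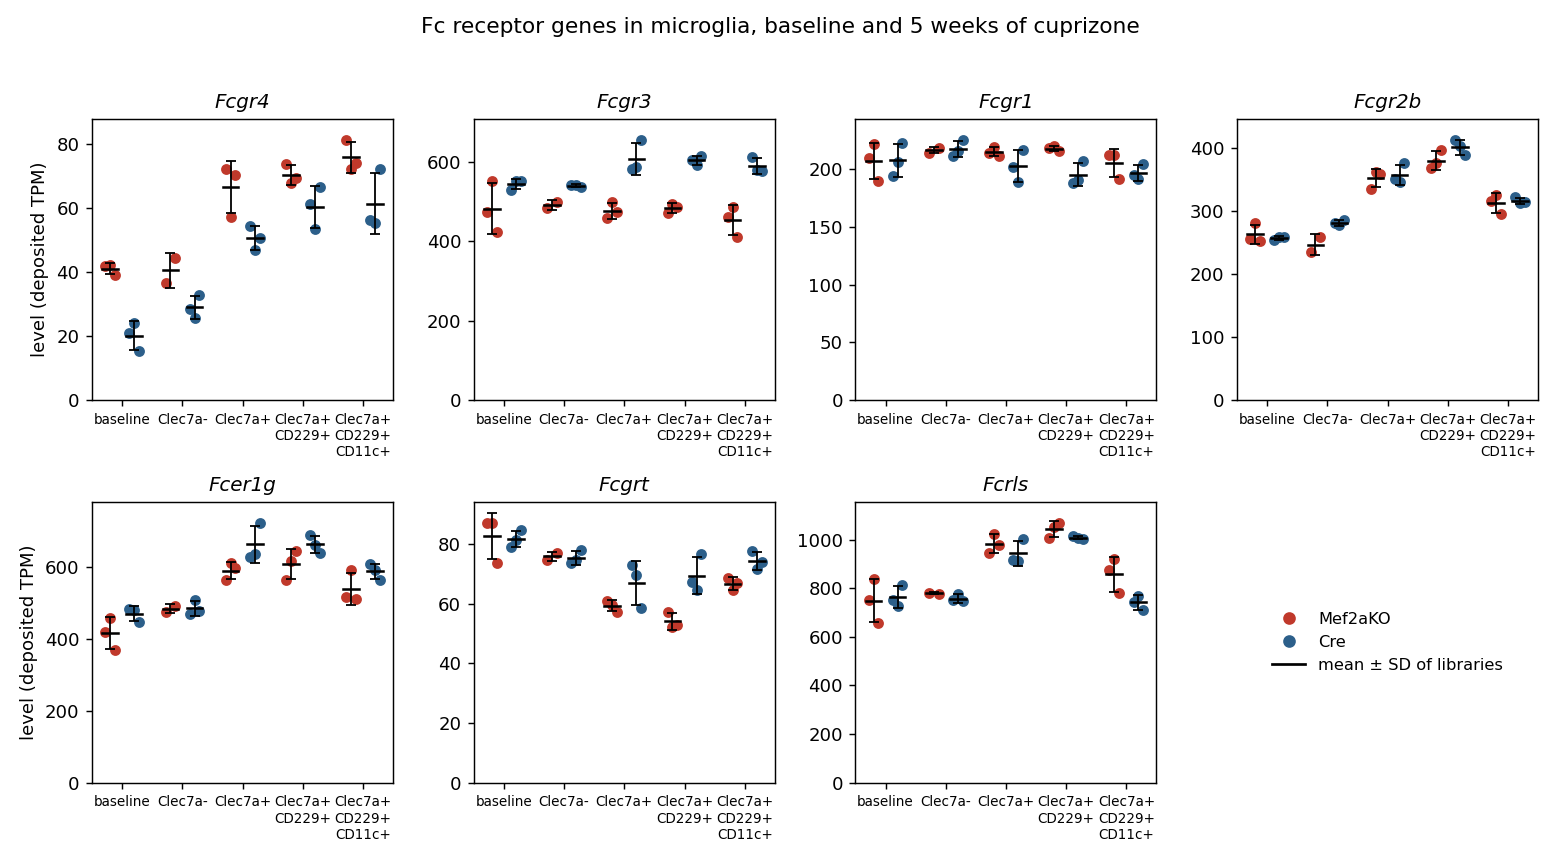
Deposited TPM of each gene in every library of the baseline and 5-week samples, by gate; Mef2aKO in red left of Cre in blue, with the mean and SD as lines. At baseline the 3 Mef2aKO libraries have 39.1 to 42.1 TPM of Fcgr4 and the 3 Cre libraries 15.3 to 24.0 TPM.

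Mef2aKO microglia had more Fcgr4 than Cre microglia before any cuprizone. Fcgr4 had 42.1, 42.1 and 39.1 TPM in Mef2aKO against 21.1, 24.0 and 15.3 TPM in Cre at baseline, with no overlap, a 2.03-fold difference (1.02, SE 0.13, adjusted p = 2.16e-06). It was the only member called there, against 3.84% of all genes. Separately sorted Mef2aKO baseline cells were higher too, although they were set against the same Cre libraries. Some libraries of both sorted groups carry a PE150 tag in their titles, and no Cre baseline library does. The part of that tag was not tested beyond the alternatives given for the processing. CD229+ cells had 58.1 and 57.8 TPM, 1.56 above Cre (SE 0.17, adjusted p = 0.000136), and CD229- cells had 44.0, 34.0 and 48.6 TPM, 1.09 above Cre (SE 0.16, adjusted p = 0.00197), against 1.59% and 1.36% of all genes. Within Mef2aKO mice, Fcgr4 was at 36.7 and 44.5 TPM in Clec7a- cuprizone cells, near the baseline libraries. In that diet step edgeR and DESeq2 called no member, 1 had an unadjusted p under 0.05, and 7.85% of all genes were called. CD229+ and CD229- baseline cells of Mef2aKO mice did not differ past the threshold for any member by either tool, where 1 had an unadjusted p under 0.05 and 0.15% of all genes were called. The test of the difference between genotypes in the diet step gave -0.52 (SE 0.19) for Fcgr4, with an adjusted p of 0.212 (0.0411 without the filter on low counts). That test called no member by either tool, with 2 at an unadjusted p under 0.05 and 1.39% of all genes called.

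Under cuprizone Fcgr4 was called as higher in Mef2aKO in the first 2 gates. The difference was 0.50 in Clec7a- cells (SE 0.14, adjusted p = 0.0231), against 5.53% of all genes called, and 0.40 in Clec7a+ cells (SE 0.12, adjusted p = 0.0434), against 3.70% of all genes, and it was not called in the last 2 gates. The first call was lost without Cre Clec7a- replicate 1 or 2 or Mef2aKO Clec7a- replicate 2 (adjusted p 0.0774 to 0.336), and the second without any of the 3 Cre replicates or Mef2aKO replicate 1 or 3 (adjusted p 0.0791 to 0.203). Fcgr3 was lower in Mef2aKO than in Cre in the 3 Clec7a+ gates. It had 459, 499 and 475 TPM in Mef2aKO Clec7a+ cells against 582, 588 and 656 TPM in Cre Clec7a+ cells (-0.35, SE 0.084, adjusted p = 0.0105). It had 471, 495 and 487 TPM in Mef2aKO Clec7a+CD229+ cells against 605, 593 and 616 TPM in Cre cells of that gate (-0.30, SE 0.084, adjusted p = 0.0294). It had 462, 487 and 412 TPM in Mef2aKO Clec7a+CD229+CD11c+ cells against 614, 580 and 577 TPM in Cre cells of that gate (-0.42, SE 0.084, adjusted p = 0.00133). In all 3 gates every Mef2aKO library was below every Cre library. The call in the Clec7a+CD229+ gate was lost on leaving out any one of its 6 libraries (adjusted p 0.0503 to 0.178), and that in the Clec7a+ gate without Cre replicate 3 or Mef2aKO replicate 1 (adjusted p 0.0829 to 0.119). The border macrophage markers summed to 8.72 to 13.4 CPM in Mef2aKO against 22.4 to 33.6 CPM in Cre Clec7a- cells, and to 42.2 to 59.6 CPM in Mef2aKO against 103 to 193 CPM in Cre Clec7a+ cells, and their part was not tested. Fcgrt was lower in Mef2aKO in the Clec7a+CD229+ gate (-0.34, SE 0.076, adjusted p = 0.00418). Background was 4.90% of genes called in the Clec7a+CD229+ gate and 4.69% in the Clec7a+CD229+CD11c+ gate.

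The genes beside the chromosome 1 receptors also differed between Mef2aKO and Cre. Within 1000000 bases on either side of the stretch from Fcgr2b to Fcer1g, 5 of 48 other genes tested were higher and 10 lower at baseline (31.2% called), where 3.84% of all genes were. In the cuprizone gates 20.8% to 27.1% of these neighbours were called. Of 76 genes called in all 5 gates in 1 direction, 13 lay in chromosome 1 between 170 and 175 megabases, where 76 genes were tested, and no other bin of 5 megabases among 515 held more than 5. Slamf6, a lymphocyte activation receptor, was higher (0.67 to 0.84), and Uap1 (-0.89 to -0.70), Olfml2b (-1.03 to -0.67) and F11r (-1.02 to -0.48) were lower in Mef2aKO in each gate. Itln1, an intestinal lectin, had reads in 18 of 19 Mef2aKO libraries, up to 37, and 0 reads in all 26 Cre, 12 WT, 11 Trem2KO and 13 Egr2KO libraries. These neighbours were looked at after the values of Fcgr3 and Fcgr4 had been seen. The labels give all lines as C57BL/6. Loss of Mef2a and any other difference between these mouse lines in this chromosome stretch cannot be told apart for Fcgr4 and Fcgr3.

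**Figure D3:**
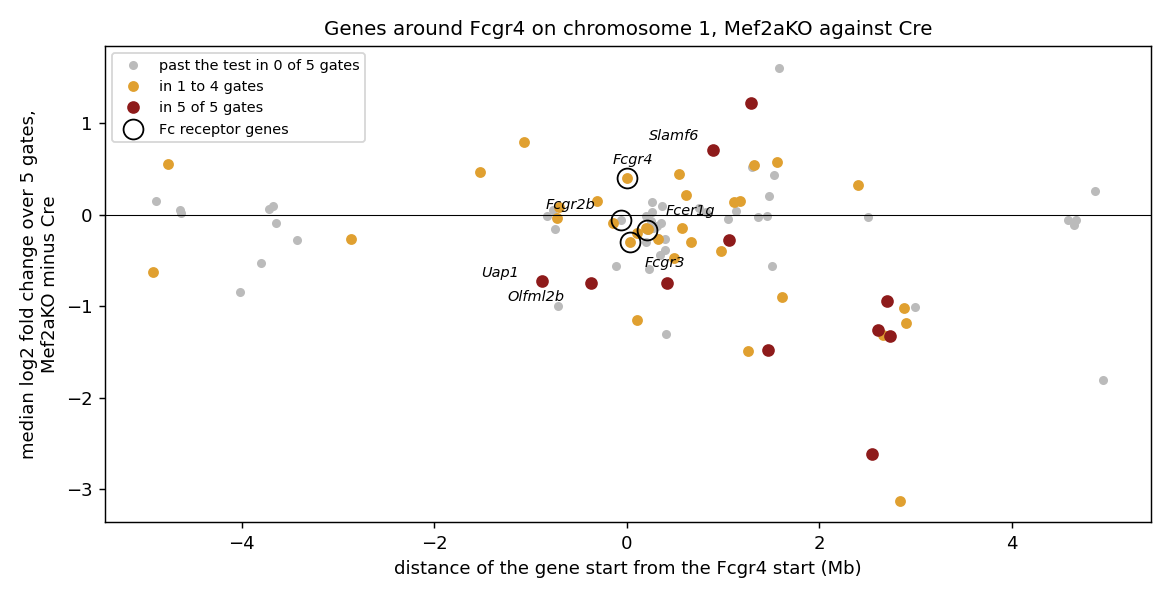
Median log2 fold change over the 5 comparisons of Mef2aKO against Cre (vertical axis) for genes within 5 megabases of Fcgr4, by distance of their start from the Fcgr4 start (horizontal axis, megabases). Colours give in how many of the 5 gates a gene was called, and circles mark the 4 Fc receptor genes; Itln1 and Ifi202b, with at most 3 reads in any Cre library, have no fold and are not drawn.

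In the Clec7a step of Mef2aKO mice 5 of the 7 genes were called. The tests of the difference from Cre in the Clec7a, CD229 and CD11c steps called no member by edgeR or by DESeq2, with 0 at an unadjusted p under 0.05 in each, and called 1.95%, 0% and 0.053% of all genes. Fcgr4 had 72.4, 57.4 and 70.3 TPM in Mef2aKO Clec7a+ cells against 36.7 and 44.5 TPM in Mef2aKO Clec7a- cells (0.81, SE 0.13, adjusted p = 7.45e-06). Fcgr2b rose by 0.61 (SE 0.078, adjusted p = 8.88e-08), Fcrls by 0.43 (SE 0.096, adjusted p = 0.000447) and Fcer1g by 0.38 (SE 0.10, adjusted p = 0.00228). Fcgrt was lower in Clec7a+ cells (-0.26, SE 0.085, adjusted p = 0.0116), a call lost without Clec7a- replicate 2 (adjusted p = 0.07). These 5 calls stand against 45.8% of all genes. In the CD11c step Fcgr2b (-0.35, SE 0.068, adjusted p = 0.000648) and Fcrls (-0.34, SE 0.085, adjusted p = 0.00666) were again lower and Fcgrt was higher (0.23, SE 0.076, adjusted p = 0.043), against 10.7% of all genes. The Fcgrt call was lost without any of the CD11c- libraries or CD11c+ replicate 1 or 2 (adjusted p 0.0643 to 0.154), and the Fcrls call without CD11c+ replicate 3 (adjusted p = 0.1). The CD229 step of Mef2aKO mice called no member by either tool, with 1 at an unadjusted p under 0.05 and 0.47% of all genes called. The border macrophage markers summed to 42.2 to 59.6 CPM in Mef2aKO Clec7a+ cells and 8.72 to 13.4 CPM in Mef2aKO Clec7a- cells. The endothelial markers summed to 125 to 160 CPM and 46.9 to 52.5 CPM, in the same order. Of these 4 markers, 3 averaged over 5 CPM in each gate. Cldn5 had 0 reads in the Clec7a+ libraries. The microglia markers summed to 10100 to 11000 CPM in Clec7a+ cells and 13300 to 13800 CPM in Clec7a- cells. The part of these marker sets was not tested.

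At 6 weeks Fcgr4 again rose with CD229. In Egr2KO mice it had 37.9, 42.4 and 46.7 TPM in CD229+CD11c- cells against 19.4, 36.0 and 25.3 TPM in CD229-CD11c- cells (0.64, SE 0.18, adjusted p = 0.00712). In Cre mice it had 38.3, 48.6 and 40.1 TPM in CD229+CD11c- cells against 18.1, 28.1 and 29.1 TPM in CD229-CD11c- cells (0.75, SE 0.17, adjusted p = 0.00203). In both genotypes all CD229+CD11c- libraries lay above all CD229-CD11c- libraries. Fcgrt was lower in CD229+CD11c- than in CD229-CD11c- cells of Egr2KO mice (-0.27, SE 0.085, adjusted p = 0.0189). The Egr2KO Fcgr4 call was lost without CD229-CD11c- replicate 1 (adjusted p = 0.073), and the Fcgrt call without replicate 2 or 3 of either gate (adjusted p 0.0695 to 0.107). Thus 2 of 7 genes were called in Egr2KO, against 27.5% of all genes, and 1 of 7 in Cre, against 17.2%. The border macrophage markers summed to 123 to 198 CPM in Egr2KO CD229+CD11c- libraries and 49.4 to 70.0 CPM in Egr2KO CD229-CD11c- libraries, and to 159 to 386 CPM in Cre CD229+CD11c- libraries and 70.0 to 101 CPM in Cre CD229-CD11c- libraries. Their part was not tested. Fcgr4 in Cre CD229-CD11c- cells at 6 weeks differed from Cre baseline by 0.31 (SE 0.18, adjusted p = 0.406). In the diet steps edgeR and DESeq2 called no member, with 3 in Egr2KO and 0 in Cre at an unadjusted p under 0.05, against 8.23% and 5.85% of all genes. In the CD11c steps both tools again called none, with 0 at an unadjusted p under 0.05, against 11.7% of all genes in Egr2KO and 17.2% in Cre.

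Egr2 is an activity-induced transcription factor, and no Fc receptor gene differed past the threshold between Egr2KO and Cre cells. Egr2 reads overlapped between the genotypes in CD229+CD11c- cells at 6 weeks. They were lower but still present in Egr2KO cells of the other cuprizone gates, so how complete the loss was is not shown here. In the baseline, CD229-CD11c-, CD229+CD11c- and CD229+CD11c+ comparisons of Egr2KO with Cre, neither edgeR nor DESeq2 called a member, and 0, 1, 0 and 0 had an unadjusted p under 0.05. Background was low as well, at 0.182%, 0.19%, 2.46% and 0.25% of all genes in those gates. The tests of the difference between genotypes in the diet, CD229 and CD11c steps called no member by either tool, with 2, 0 and 0 at an unadjusted p under 0.05, and 0.0303%, 0% and 0% of all genes. In unsplit cells at 5 weeks both tools also called none, against 0.92% of all genes for edgeR, and 3 had an unadjusted p under 0.05. Fcgr4 had 61.3 and 48.0 TPM in unsplit Egr2KO cells against 46.3 and 50.3 TPM in unsplit Cre cells. Fcgr3 had 546 and 536 TPM in unsplit Egr2KO cells against 598 and 676 TPM in unsplit Cre cells. Each of these groups had 2 libraries, and the smallest difference that could be called was not computed. At 6 weeks the libraries whose titles carry a PE150 tag, 2 of 3 in every gate of both genotypes, often had lower Fcer1g and Fcrls than the untagged one: in Cre CD229+CD11c+ cells Fcer1g had 523 and 420 TPM with the tag and 606 TPM without it. An exception was Egr2KO CD229-CD11c- replicate 3, which has the tag and the highest values of its gate. Both Egr2KO baseline libraries carry the tag and no Cre baseline library does. At baseline, genotype and tag therefore cannot be told apart, and in the diet steps the tag is uneven between the groups. The part of that tag in the levels was not tested beyond the alternatives given for the processing.

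**Figure D4:**
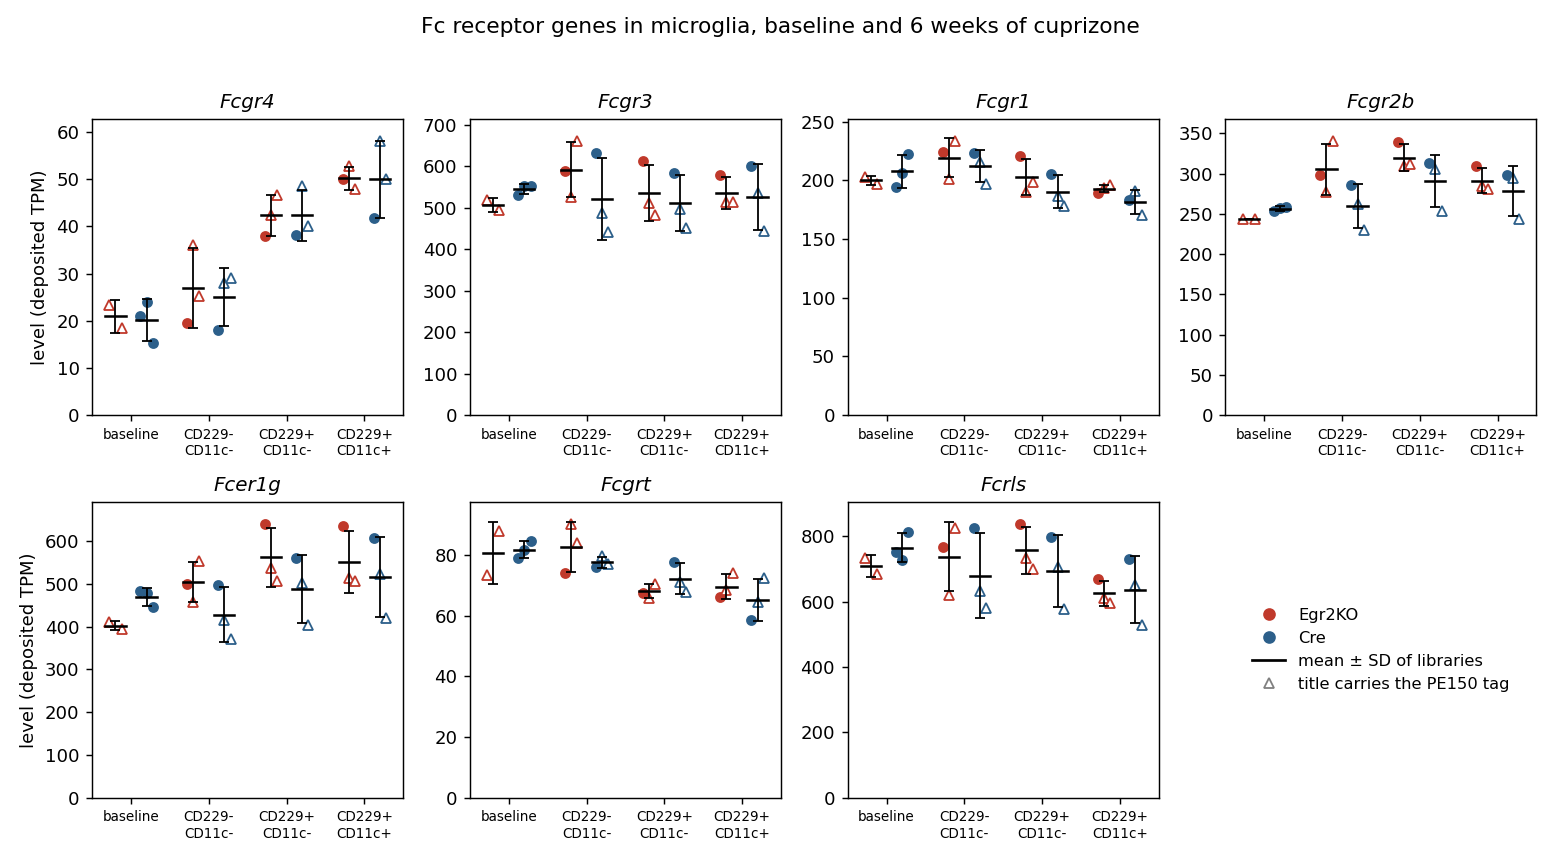
Deposited TPM of each gene in every library of the baseline and 6-week samples, by gate; Egr2KO in red left of Cre in blue, open triangles for libraries with the PE150 tag, lines for mean and SD. Fcgr4 lies between 37.9 and 48.6 TPM in all 6 CD229+CD11c- libraries and between 18.1 and 36.0 TPM in the 6 CD229-CD11c- libraries.

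The balance of activating to inhibitory receptor transcripts was described as the log2 ratio of summed Fcgr1, Fcgr3 and Fcgr4 TPM to Fcgr2b TPM, without a test. It was above 0 in every group, so activating transcripts outnumbered inhibitory ones per length throughout. In WT mice at 4 weeks it was 1.04 ± 0.023 in CD229+CD11c- cells and 1.52 ± 0.048 in CD229-CD11c- cells (SD, n = 3 each). In Trem2KO mice it was 1.32 ± 0.049 in CD229+CD11c- cells and 1.61 ± 0.079 in CD229-CD11c- cells (SD, n = 4 each). The ratio was thus lower in CD229+CD11c- than in CD229-CD11c- cells in both genotypes, with no overlap of the libraries. In WT CD229+CD11c+ cells it was 1.495 ± 0.096 (SD, n = 3). Those libraries, at 1.41 to 1.599, overlap the WT CD229-CD11c- libraries, at 1.49 to 1.574. In Cre mice at 5 weeks it was 1.27 ± 0.025 in Clec7a+ cells and 1.49 ± 0.015 in Clec7a- cells (SD, n = 3 each). The sum is mostly Fcgr3, which was not called in the WT step, where Fcgr2b rose. Fcgr4 alone over Fcgr2b moved the other way, and was higher by 0.61 in CD229+CD11c- than in CD229-CD11c- cells of WT mice. The ratio of Fcgr4 to Fcgr3 TPM had a geometric mean of 0.112 in WT CD229+CD11c- cells and 0.0514 in WT CD229-CD11c- cells, and of 0.0855 in Mef2aKO and 0.0363 in Cre cells at baseline.

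Among 14 other Fc receptor and Fc-like genes, 5 or 6 passed the filter on low counts, depending on the experiment. B2m, the light chain with which the neonatal receptor pairs, rose in the CD229 step of WT mice by 0.53 (SE 0.081, adjusted p = 4.25e-06) while Fcgrt fell. Fcrl1, an Fc receptor-like gene best known from B cells, went the opposite way from Fcgr4 between Trem2KO and WT in the CD229+CD11c- gate. It averaged 64.4 ± 5.35 CPM in Trem2KO and 24.0 ± 2.31 CPM in WT cells there (SD, n = 4 and n = 3). The log2 fold change was 1.36 (SE 0.098, adjusted p = 7.3e-12). In Mef2aKO against Cre Clec7a- cells Fcrl1 was higher (0.39, SE 0.097, adjusted p = 0.0112), and there Fcgr4 was called as higher too. The 5 B cell markers summed to 6.34 to 29.2 CPM over all libraries. In the comparison of Trem2KO with WT cells of the CD229+CD11c- gate 3 genes of the list were higher and 1 lower of 5 tested. Over all genes 52.5% were called there, 26.5% as lower.

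The genes that carry the Fc receptor signal did not move as one. Of 36 listed signaling genes, 34 were tested at 4 weeks. In the CD229 step of WT mice 9 rose and 16 fell, where 48.8% of all genes were called. Fgr, a Src-family kinase of myeloid cells, rose by 1.33 (adjusted p = 1.01e-08) and Fyn, another kinase of that family, by 1.03 (adjusted p = 9.12e-11). Prkce, a protein kinase C, fell by 1.27 (adjusted p = 8.77e-11), and Src fell by 0.88 (adjusted p = 2.77e-08). In Trem2KO against WT cells of the CD229+CD11c- gate 12 of the 34 were higher and 11 lower, where 52.5% of all genes were called. Fgr (-4.82, SE 0.17, adjusted p = 3.18e-18), Fyn (-2.34, adjusted p = 3.18e-18) and Lat2, a linker of immune receptor signaling (-1.09, adjusted p = 1.7e-11), were lower and Prkce was higher (0.86, adjusted p = 4.24e-08). In Mef2aKO against Cre cells, Fgr was lower in the Clec7a- gate (-1.39, adjusted p = 5.76e-09). There 1 gene of 35 was higher and 3 were lower, where 5.53% of all genes were called. The median log2 fold change over the list was -0.12 in the WT CD229 step, 0.089 for Trem2 loss and 0.052 for Mef2a loss.

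The 14 genes of inhibitory signaling divided as well. In the CD229 step of WT mice 4 of 13 tested rose and 7 fell, where 48.8% of all genes were called. Dok2 rose by 0.91 (adjusted p = 0.0033) and its relative Dok3 fell by 1.22 (adjusted p = 5.93e-10); both encode adaptors that dampen immune receptor signaling. Cbl and Cblb, ubiquitin ligases of the same pathways, differed by -0.53 and -0.48. In Trem2KO against WT cells of the CD229+CD11c- gate Dok2 was lower (-3.12, adjusted p = 4.26e-10) and Dok3 higher (1.18, adjusted p = 2.96e-10). There 5 of 13 were higher and 4 lower, where 52.5% of all genes were called. In the Clec7a step of Cre mice Dok2 rose by 1.66 (adjusted p = 2.73e-07) and Dok3 fell by 0.89 (adjusted p = 4.98e-09). Dok2 was scarce, with a mean of 5.14 CPM in the 4-week and 8.06 CPM in the 5-week experiment. These means lie near the 5 CPM needed for a gene to be named, so its fold changes rest on few reads.

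Over the 28 groups the members' mean log2 CPM followed one another unevenly, which is a description over groups that share libraries and normalization. Fcgr2b and Fcer1g had the highest correlation (Pearson r = 0.914), Fcgr2b and Fcgr4 had r = 0.791, Fcgr3 and Fcgr4 r = 0.276, and Fcgrt had a negative r with the 6 others, down to -0.596 with Fcgr4. Among 8749 other genes, the 5 most like Fcgr4 were B4galnt1 (r = 0.973), Slc26a10 (r = 0.973), Chst1 (r = 0.967), Ifi30 (r = 0.941) and Ctse (r = 0.94). Those most like Fcer1g were Capzb (r = 0.979), Ctsd (r = 0.972), Cap1 (r = 0.967), Snx22 (r = 0.967) and Ppib (r = 0.966), and those most like Fcgr2b were Rpn2 (r = 0.963), Ddost (r = 0.958), Bsg (r = 0.957), Ly86 (r = 0.956) and Arl6ip1 (r = 0.954). The genes most like Fcrls were Laptm5, Canx, Tcn2, Rab1a and Itgam (r = 0.912 to 0.928). Among the genes most like Fcgr1 were Pik3ap1, Ldhb and Plxnb2 (r = 0.864 to 0.89), and Fcgrt was most like Nisch, Abtb1, Smap2, Arl10 and Akap8l (r = 0.819 to 0.867). Among those most like Fcgr3 were Copa (r = 0.797), Actg1 (r = 0.781), Tbc1d4 (r = 0.779) and H3f3a (r = 0.773), of which Copa is among its neighbours on chromosome 1.

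Fcgr2b and Fcgr3 share sequence, which bears on how reads were assigned between them. Of 1298 windows of 50 bases in the Fcgr3 transcript, 166 (12.8%) also occurred in the Fcgr2b transcript, which makes 4.75% of the Fcgr2b windows (GENCODE M21, GRCm38). The Fcgr2b transcript searched has 3544 bases and the one used for the counts has 1536 bases. The share of Fcgr2b windows thus depends on the transcript. No window of 50 bases was shared between Fcgr4 or Fcgr1 and the other IgG receptor transcripts.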

How the data were processed

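The deposited raw count tables hold read counts per gene, and the deposited TPM tables hold levels normalized for transcript length and depth, both made by the authors. The submitters' processing notes name fastp 0.20.0, STAR 2.7.0f, HOMER 4.11, DESeq2 and the mm10 (GRCm38) build, with no roles. The titles name a dUTP protocol, which marks strand. Groups came from the sample titles. The 7 members and the 3 gene lists were chosen with earlier results of these data known, and so was the rule for named genes: the 7 members, and from each list up to 4 called genes per comparison with the largest change and a mean of at least 5 CPM; genes of like pattern needed at least 10 CPM. Some genes of like pattern are not reported here. At 4 weeks the WT and Trem2KO counts were joined over 2 tables on 24910 genes whose shared WT baseline libraries had identical counts, leaving out 214.

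Counts were fitted with edgeR 4.0.16 (quasi-likelihood F test, filterByExpr, TMM, 1 mean per group) in R 4.3.3, in 5 fits with 44 comparisons, 9 of them differences between steps. P-values were adjusted by Benjamini-Hochberg over all genes tested (12387 to 13204), with calls at 0.05. TMM factors ran from 0.923 to 1.08. Count scripts were tested on simulated data. Replicate pairs differed beyond counting noise (chi-square per degree of freedom at least 1.56 in all 80 pairs). The labels do not say that a replicate number joins groups; over all genes every same-numbered pair deviated together (correlation over 0.1) only in the CD229 steps at 6 weeks, in Cre (0.17 to 0.288) and Egr2KO (0.121 to 0.176). Alternatives were DESeq2 1.42.0, its size factors in edgeR, no filter, a fit of the 2 compared groups alone, blocks for the replicate number, a PE150 term or subset, the same transcript in both tables, and leaving out each replicate.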

Additional observations from a re-analysis of the deposited data

Results flagged for a closer look

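The CD229 step of Fcgr2b at 4 weeks differed between Trem2KO and WT mice by the test of the difference itself (edgeR, -0.25 on the log2 scale, SE 0.081, adjusted p = 0.0359), 1 of 63 such values tested for the members. Fcgr2b was higher in CD229+CD11c- than in CD229-CD11c- cells by 0.34 in Trem2KO and by 0.59 in WT mice. The call of the difference was lost on leaving out some single libraries (adjusted p up to 0.142) and without the filter on low counts (adjusted p = 0.0518). Fcer1g, not called in this test as reported, was called under some alternative settings. No library of the 2 groups of 4 stood apart from the rest for any of the 7 genes.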

How the results depend on the processing

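Counts of members called moved by over 1.5 times as follows. With DESeq2 2 were called in the Trem2KO diet step (1 in the fit as reported) and 3 in the genotype difference of the CD229 step (1 as reported). With DESeq2's size factors in edgeR that difference called 2 and the Mef2aKO comparison in Clec7a+ cells 1 (2 as reported). Without the filter on low counts 2 were called in the Cre diet step at 5 weeks (1 as reported) and, where none was as reported, 1 in the Mef2aKO diet step, 1 in the Mef2aKO and 1 in the Egr2KO genotype difference of the diet step, 3 in the Egr2KO diet step and 2 in unsplit Egr2KO cells. With only the compared groups in the fit 2 were called in the CD229 genotype difference at 4 weeks, 2 in the Cre diet step at 5 weeks and 2 in the Egr2KO diet step. A replicate block gave 2 in the CD229 genotype difference at 4 weeks and 2 in the Egr2KO diet step, and the number as a block within each genotype and diet gave 3 in that difference, 5 in the Trem2KO CD229 step (3 as reported), 2 in the Cre CD229 step at 5 weeks (0) and 1 in the Mef2aKO baseline CD229 step (0). The replicate numbers are not known to pair samples in these comparisons; at 6 weeks, where they deviated together in the CD229 steps, no block changed a member's call in those steps. Only PE150 libraries gave 1 in the Egr2KO diet step, and a PE150 term gave 2 for Mef2aKO CD229+ baseline cells (1). In all, 21 of 275 counts moved so. The cause was not tested.

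Leaving out each library in turn gave 3 to 5 called members in the WT diet step (6 as reported), 0 to 2 in the Trem2KO diet step (1), 3 to 6 in the Trem2KO CD229 step (3), 0 to 2 in the CD229 genotype difference (1), 0 to 1 in the Mef2aKO diet step (0) and 0 to 1 in the Egr2KO diet step (0). It gave 1 to 2 in the Egr2KO CD229 step (2) and 0 to 3 in unsplit Egr2KO cells (0), where the lone sample left in a group is assumed to vary like the others. For Mef2aKO against Cre it gave 1 to 2 at baseline (1), 0 to 1 in Clec7a- (1), 0 to 2 in Clec7a+ (2), 1 in Clec7a+CD229+ (2), 1 to 2 in Clec7a+CD229+CD11c+ (1) and 1 to 2 in CD229+ baseline cells (1).

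Of 4123 member values under alternatives 271 had the opposite sign, 0 of them where either value passed the test. The log2 difference of the activating to inhibitory ratio reversed with Fcgr4 alone in place of the sum, to 0.61 in the CD229 step of WT, 0.75 of Trem2KO, 0.62 of Cre at 6 weeks and 0.63 of Egr2KO, and to 0.46 in the Clec7a step of Cre and 0.20 of Mef2aKO. With Fcgr3 alone it was -0.37 in the Trem2KO CD229 step, -0.18 in the Cre Clec7a step and -0.56 in the Mef2aKO Clec7a step, and with CPM in place of TPM -0.26 in the Cre Clec7a step. Groups of 2 to 4 pooled libraries limit which differences can be called. Fcgr4 had 80 to 884 reads per library.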
